A study of Capra hircus with 3 samples.

Results

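Endothelial cells line blood and lymphatic vessels, and this account describes those of goat fetal skin at E60. They were 136 of the 6849 E60 cells and of the 20676 cells of all stages, or 1.99% of the E60 library (exact 95% interval 1.67 to 2.34). A cell was counted as endothelial when at least 4 of 13 endothelial genes had a UMI, a counted RNA molecule, in it. The genes were PECAM1, CDH5, KDR, TIE1, TEK, EGFL7, ESAM, CLDN5, VWF, PLVAP, EMCN, ECSCR and FLT1. All but ECSCR, which was not used here, were among the genes of the table, so the choice rested on 12 genes. Since expression chose the cells, their levels of these 12 genes are a description and support nothing.

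The skin came from the back of fetuses of the Northern Shaanxi White Cashmere Goat, with no treatment or genetic change named in the labels. Each stage gave 1 library of cells that had been pooled from 2 or more fetuses before barcoding in droplets, so the spread between fetuses is unknown. Whole skin at E60 and E90 was freed into cells with collagenase IV and pipetting. At E120 the collagenase-treated skin gave up its follicles to forceps, and only these were dissociated, with TrypLE, so stage and dissociation cannot be told apart for E120. Levels below are sums over the cells of a group, as CPM, that is, counts scaled to a total of 1000000 UMIs. Intervals are exact at 95% (Poisson for counts, Clopper-Pearson for shares) and cover counting error only. A difference between groups was called when the ratio of CPM + 1 was at least 2-fold, with at least 20 CPM in the higher group. Folds are printed as plain ratios of CPM without the added 1, so for genes near 0 in a group they exceed the ratios used for calls. No test was possible with 1 library, and no p-value is given.

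As background, vascular endothelial growth factor signals through KDR to make endothelial cells divide and sprout, and FLT1 binds the same factor and limits it. Sprouts become arteries under Notch signalling and veins under the nuclear receptor NR2F2, and the transcription factor PROX1 turns some venous cells into lymphatic endothelium, which drains tissue fluid and makes the chemokine CCL21. In skin these vessels grow through the dermis while hair follicles form, next to the mural cells (pericytes and smooth muscle) that wrap them.

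The number of rule genes found per cell separated a small group of cells from the rest of E60. No rule gene was found in 5750 cells, 1 was found in 861, 2 in 93 and 3 in 9. Among the 136 endothelial cells, 9 cells had 4 genes and the median was 7, while the highest number was 11. Few cells thus lay on either side of the threshold. The 9 cells just inside it summed to 362 CPM of PECAM1, 716 CPM of KDR, 293 CPM of VWF and 1552 CPM of SOX18, an endothelial transcription factor that the rule did not use. The 9 cells just outside summed to 72.0 CPM of PECAM1, 117 CPM of KDR, 108 CPM of VWF and 666 CPM of SOX18. PECAM1, KDR and VWF are rule genes, so their levels on either side follow in part from the choice and support nothing. Lymphatic cells, described below, were among the cells just inside and just outside. DCN, a matrix proteoglycan of fibroblasts, was at 1052 CPM inside and 1323 CPM outside.

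**Figure D1:**
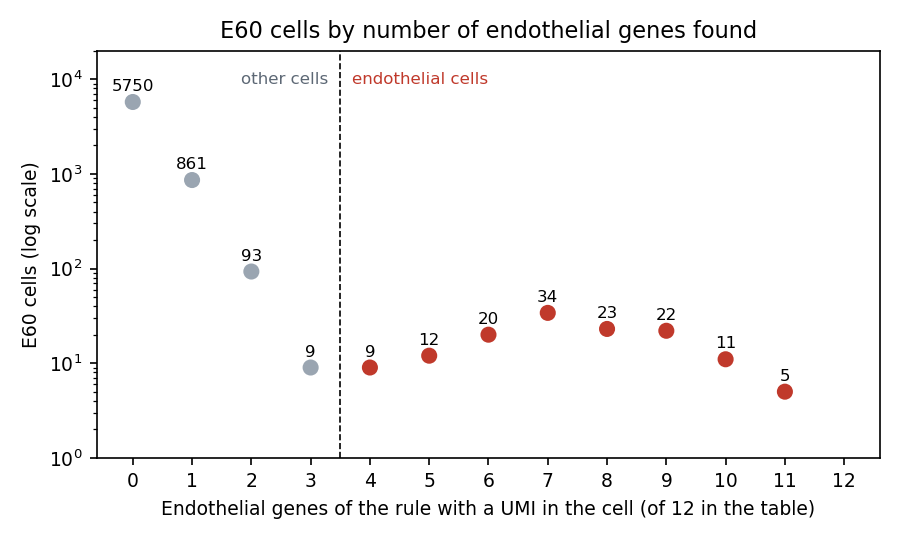
The horizontal axis is the number of the 12 endothelial rule genes with a UMI in a cell, and the vertical axis is the number of E60 cells on a log scale. The dashed line is the threshold of 4 genes, and the 136 cells to its right are centred on 7 genes, with 9 cells on either side of the line.

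Endothelial cells had more UMIs per cell than the other E60 cells, and a rule on genes found can favour such cells. They had 6307 to 43941 UMIs each with a median of 16131, against a median of 8536 in the other 6713 E60 cells. The median number of genes was 2700 against 1816, and the highest was 3996 against 3991. With each cell reduced at random to 6000 UMIs, a number that all cells reached, the medians were 1596 and 1478 genes. Mitochondrial genes held a median of 6.79% of the UMIs in endothelial cells and 4.50% in the others. Shares of cells with a UMI below are not adjusted for this depth except where thinning is named. A doublet caller marked 11 of the 136 cells (8.09%) against 3.50% of the library, and it found 44.8% of doublets simulated from this library. Between libraries, 9 cell barcodes were shared by E60 and E90 and 10 by E60 and E120, of which 2 and 0 belonged to endothelial cells.

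The rule genes differed in how many of the cells they marked. KDR, the main growth factor receptor, had 1 to 42 UMIs per cell with a median of 9 and was in 136 of 136 cells. PECAM1, an adhesion protein of endothelial junctions, had 0 to 37 UMIs with a median of 7 and was in 135 cells. PLVAP, which forms the diaphragms of fenestrae and caveolae, had 0 to 151 UMIs with a median of 28.5 and was in 118 cells. PLVAP therefore covered a wide range, and the cells without it are taken up below. ESAM, a junction protein, was at 898 CPM (860 to 938) against 7.14 CPM in the other cells, and VWF, the carrier of a clotting factor, was at 829 CPM (792 to 867) against 1.91 CPM. The remaining rule genes were sparse: CDH5 was in 43.4% of the cells, EMCN in 37.5%, TIE1 in 34.6%, CLDN5 in 19.9% and TEK, the angiopoietin receptor, in 16.9%. CDH5, EMCN, TIE1, CLDN5 and TEK had between 1 and 3 UMIs each in all other E60 cells together. EGFL7 had the smallest ratio of the 12 genes, with 51.0 CPM against 2.95 CPM, or 17.3-fold (13.6 to 21.9).

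Across the table, 4281 genes reached 20 CPM in either sum. Of these, 697 (16.3%) were at least 2-fold higher and 546 (12.8%) at least 2-fold lower in endothelial cells than in all other E60 cells, and the median log2 ratio was 0.08. The cells were chosen by expression within this contrast, so the counts and those of the gene lists below describe the group and nothing is read from their excess over these shares.

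Outside the rule, the largest ratio among genes with a symbol and at least 100 CPM was that of PNOC, the precursor of the neuropeptide nociceptin. PNOC had 0 to 167 UMIs per endothelial cell with a median of 1, and summed to 755 CPM (720 to 792) against 1.13 CPM in the other cells, a 668-fold difference (526 to 859). Its log2 ratio was 8.47 with 1 CPM added and 6.10 with 10 CPM added. Only 78 of the 136 cells had a PNOC UMI, and 40 cells with at least 10 UMIs held 93.5% of its counts. PNOC thus marked some of the cells and left the others at or near 0. CD36, a receptor for fatty acids and thrombospondin, was spread more evenly, with 0 to 91 UMIs per cell, a median of 11, and 934 CPM against 3.57 CPM. TM4SF1, a membrane protein of the tetraspanin-like family, was in 135 of 136 cells, with 1364 CPM against 7.74 CPM. Of the other genes among the 12 largest ratios, TFPI, which inhibits the start of clotting, was at 488 CPM against 1.48 CPM, and ROBO4, a guidance receptor of endothelium, was at 402 CPM against 1.23 CPM. DEPP1, a gene induced by FOXO factors, was at 2364 CPM against 7.44 CPM. The rest were FABP3.1 (258 CPM against 0.462 CPM), MECOM (233 against 0.510 CPM), C1orf115 (550 against 2.82 CPM), the junction protein gene F11R (193 against 0.860 CPM), MYCT1 (333 against 2.21 CPM) and the endothelial phosphatase gene PTPRB (124 against 0.271 CPM). FABP3.1 carries a suffix that marks a further entry of a symbol, so which copy of this fatty acid binding gene it counts is uncertain.

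The 6 smallest ratios belonged to genes that at least 50.2% of the other E60 cells carried. PENK, the precursor of enkephalin peptides, was at 12.6 CPM in endothelial cells against 293 CPM in the others, 23.2-fold lower (16.1 to 34.6). GDF10, a secreted factor of the bone morphogenetic protein family, was at 9.59 CPM against 160 CPM, and the cadherin gene CDH6 was at 17.9 CPM against 251 CPM. HS3ST6, a heparan sulfate enzyme, ZNF536 and EMP3 were lower by 15.8-fold, 15.8-fold and 13.3-fold.

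**Figure D2:**
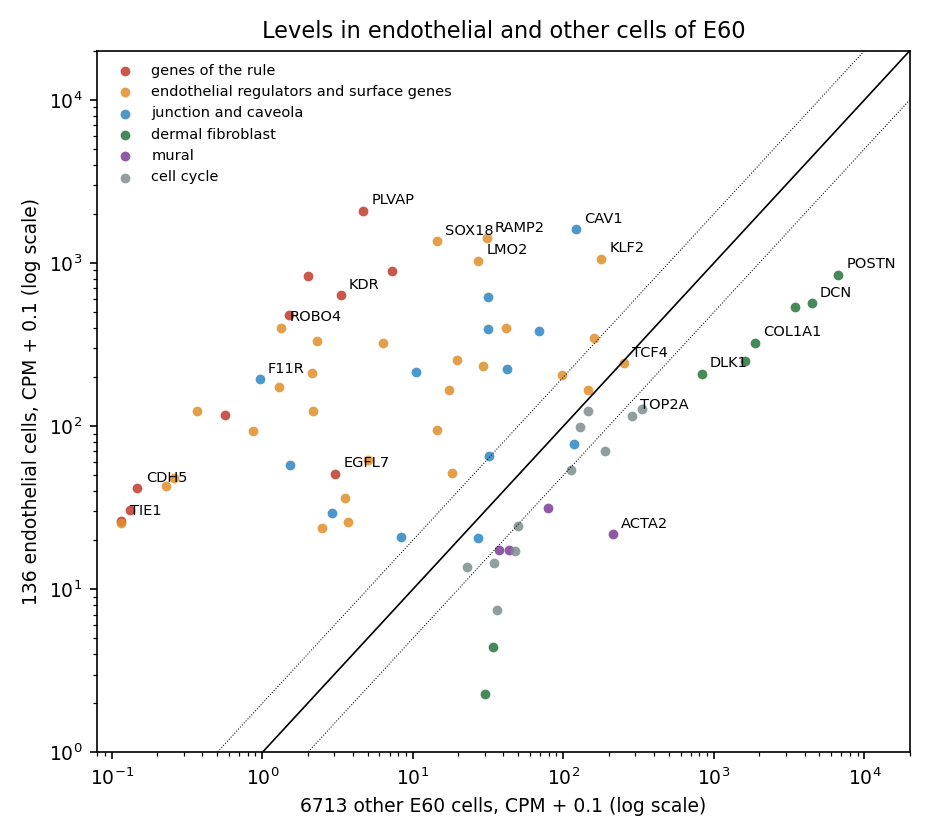
Each point is a gene of 6 groups that share the colours of the key, with its CPM + 0.1 in the 6713 other E60 cells on the horizontal and in the 136 endothelial cells on the vertical log axis. The solid line is equality and the dotted lines are 2-fold, and PLVAP, SOX18 and CAV1 lie above them while DCN and ACTA2 lie below.

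Transcription factors known from endothelium were higher as a group. Of 28 listed factors 26 were in the table and 18 reached 20 CPM, of which 16 were higher and none lower, with a median log2 ratio of 2.92. SOX18, needed for vessel and lymphatic growth, had 0 to 95 UMIs per cell with a median of 18.5 and was at 1367 CPM (1319 to 1415) against 14.3 CPM. LMO2, a bridging protein of blood and endothelial transcription complexes, was in all 136 cells with 1 to 80 UMIs, and was at 1034 CPM against 27.1 CPM. Both were in nearly every endothelial cell. KLF2, which responds to blood flow, was at 1062 CPM (1020 to 1105) against 177 CPM. GATA2, HHEX, BCL6B, FOXO1 and FLI1 were at 47.9, 212, 43.1, 323 and 253 CPM in endothelial cells, and their levels in the other cells ranged from 0.127 to 19.4 CPM. TCF4 and MEF2C did not reach 2-fold, with 244 against 251 CPM and 167 against 146 CPM. ERG was under the minimum at 7.41 CPM (4.32 to 11.9), and SOX17 was at 2.18 CPM (0.708 to 5.09).

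Every surface gene that reached the minimum was higher, and so were most such junction genes. All 11 of the other endothelial surface genes that reached the minimum were higher, of 31 in the table and 36 listed, with a median log2 ratio of 5.49. RAMP2 and CALCRL together form the receptor for adrenomedullin. RAMP2 had 0 to 71 UMIs per cell with a median of 19 and was at 1424 CPM (1375 to 1474) against 30.8 CPM, and CALCRL was at 166 CPM (149 to 183) against 17.2 CPM. Of 15 tested junction and caveola genes, from 21 in the table, 13 were higher and none lower, with a median log2 ratio of 3.61. CDH5 and ESAM among the higher genes belong to the rule, so their excess follows in part from the choice of cells. CAV1, the coat protein of caveolae, had 0 to 81 UMIs per cell with a median of 24 and was at 1620 CPM against 120 CPM. CAVIN1 was at 621 CPM against 31.5 CPM, CAVIN3 at 396 CPM against 31.5 CPM, and AFDN, a linker of junctions to actin, at 215 CPM against 10.5 CPM. CAV1, CAV2 and 3 cavin genes were thus all among the higher genes. JAM3 and GJC1 were the 2 that stayed under 2-fold, at 77.1 against 117 CPM and 20.5 against 27.0 CPM.

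The basement membrane, the sheet of matrix under the endothelium, had a like pattern. Of 11 tested genes from 15 in the table, 8 were higher and none lower, with a median log2 ratio of 1.83. COL4A1, a chain of its main collagen, had 0 to 34 UMIs per cell with a median of 9 and was at 628 CPM (596 to 661) against 68.3 CPM. COL15A1, a collagen beneath capillaries, was at 130 CPM against 0.430 CPM, in 98 of the 136 cells. SPARC, made by many matrix-producing cells, was at 2283 CPM against 4367 CPM and under 2-fold. When levels were scaled by the median of ratios between genes, a shift of 0.08 on the log2 scale before the pseudocount, SPARC counted as lower and 1 fewer gene of the list as higher. Under that scaling 1 gene fewer was also higher among the transcription factors, the tip cell genes and the junction and caveola genes, and 1 more was lower among the ligands and the myeloid genes.

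Integrins, the receptors for matrix, were divided. Of 8 tested genes from 13 in the table, 3 were higher and 4 lower, with a median log2 ratio of -0.34. ITGA6, a laminin receptor chain, was at 94.1 CPM (82.0 to 108) against 2.55 CPM, and the collagen receptor chains ITGA1 and ITGA2 were at 35.7 against 6.37 CPM and 23.5 against 1.37 CPM. ITGB5 was at 66.2 CPM against 208 CPM and ITGA4 at 8.28 CPM against 49.4 CPM. Of 12 clotting and leukocyte adhesion genes in the table, 3 reached the minimum and were higher: TFPI, the rule gene VWF, and F8. F8, the gene of clotting factor VIII, was at 37.5 CPM (30.0 to 46.3) against 0.621 CPM.

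Ligands and receptors of the vessel wall were set beside the cells that could carry their partners. For this, 365 other E60 cells with at least 4 markers of mural cells, 100 with at least 4 markers of myeloid cells and the 6248 remaining cells were summed. Both marked groups are ranges of a marker count. Mural-marked cells also carried COL1A1, the fibroblast collagen, at 3983 CPM. Of 18 tested ligands from 38 in the table, 7 were higher in endothelial cells and 5 lower than in all other cells, with a median log2 ratio of 0.42. Of 19 tested receptors from 40 in the table, 13 were higher and 5 lower, with a median of 2.65. FLT1, KDR and TIE1 among the higher receptors are rule genes, so their excess follows in part from the choice of cells.

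VEGFA and ANGPT1 were lower in endothelial cells than in each other group, whereas the receptor KDR was higher. VEGFA was at 7.84 CPM (4.65 to 12.4) in endothelial cells, 59.2 CPM (51.6 to 67.5) in mural-marked cells and 27.2 CPM (25.8 to 28.5) in the remaining cells. Its receptor KDR was at 637 CPM in endothelial cells and between 3.13 and 4.34 CPM in the other groups. ANGPT1, the ligand of TEK, was at 3.49 CPM (1.51 to 6.87) in endothelial cells against 35.5 CPM in mural-marked and 39.2 CPM in remaining cells. ANGPT2, the antagonist of ANGPT1, was at 7.84 CPM in endothelial cells and 18 UMIs in all, with 22.2% of them in 1 cell. NRP1, a coreceptor for VEGFA, was at 233 CPM in endothelial cells but at 486 CPM (443 to 531) in myeloid-marked cells.

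Notch ligands differed from each other in where they were found. JAG2 had 0 to 12 UMIs per endothelial cell with a median of 1, and was at 90.2 CPM (78.3 to 103) against 1.36 CPM in mural-marked and 1.03 CPM in remaining cells. DLL1 was at 63.2 CPM (53.3 to 74.4) against 1.63 and 4.53 CPM. JAG1 was at 63.6 CPM in endothelial cells and at 64.0 CPM in mural-marked cells. DLL4, the ligand known from sprouting and arterial endothelium, had 3 UMIs in 3 of the 136 cells. NOTCH3, a mural receptor and one of the markers that chose the mural-marked cells, was at 17.4 CPM in endothelial cells and 246 CPM in those. Of the Notch target genes, HES1 was at 230 CPM (211 to 251) in endothelial cells against 35.9 CPM in all others, and HEY1 at 36.2 CPM (28.8 to 44.8) against 3.44 CPM.

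Other ligands made by endothelial cells were KITLG, EDN1 and TGFB1. KITLG, the ligand of KIT, had 0 to 12 UMIs per cell with a median of 2 and was at 132 CPM (118 to 148), against 35.3 CPM in mural-marked and 1.57 CPM in remaining cells. KIT itself was at 51.0 CPM in endothelial cells and 15.3 CPM in all others. EDN1, the vasoconstrictor endothelin, was at 61.0 CPM (51.3 to 72.0) in endothelial and 63.6 CPM (48.9 to 81.4) in myeloid-marked cells, against 1.36 CPM in mural-marked and 1.26 CPM in remaining cells. Its receptor EDNRA was at 173 CPM (160 to 187) in mural-marked and 19.6 CPM in endothelial cells. TGFB1 was at 103 CPM (90.6 to 117) in endothelial, 78.8 CPM (62.3 to 98.3) in myeloid-marked and 14.2 CPM in remaining cells, and its coreceptor ENG at 399 CPM in endothelial and 41.3 CPM in remaining cells. The targets ID1 and ID3 of bone morphogenetic proteins were at 720 against 163 CPM and 750 against 158 CPM, and 4 of the 6 tested targets of this family and of TGF-beta were higher, with ID4 lower. PDGFB, with which endothelium recruits pericytes, had 6 UMIs in 6 endothelial cells and 1 UMI in mural-marked cells, while PDGFA was at 142 CPM in mural-marked and 17.0 CPM in endothelial cells.

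CXCR4 and its ligand CXCL12 overlapped between groups. CXCR4 was at 234 CPM (214 to 254) in endothelial cells, 187 CPM (174 to 202) in mural-marked and 13.2 CPM in remaining cells. CXCL12 was at 63.6 CPM in endothelial, 97.7 CPM in mural-marked and 78.1 CPM in remaining cells. SLIT3, a ligand of the ROBO family, was at 2.18 CPM (0.708 to 5.09) in endothelial cells, 30.4 CPM in mural-marked and 30.2 CPM in remaining cells. ROBO4 was at 0.271 CPM in mural-marked and 1.27 CPM in remaining cells. Another receptor of that family, ROBO2, went the other way, at 17.0 CPM in endothelial, 63.2 CPM in mural-marked and 149 CPM in remaining cells.

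**Figure D3:**
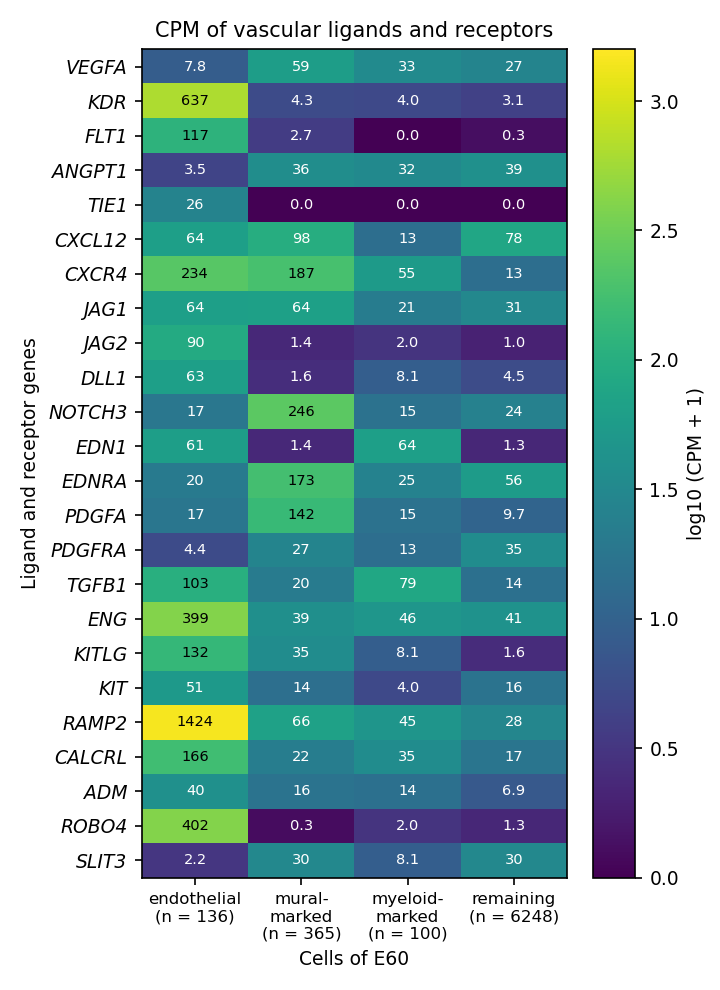
Rows are ligand and receptor genes, columns are 4 groups of E60 cells with their numbers, and colour is log10 of CPM + 1. KDR, JAG2 and RAMP2 are brightest in the endothelial column, while VEGFA, EDNRA and PDGFA are brightest in the mural-marked column.

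Blood and lymphatic endothelium were told apart by PROX1, LYVE1, FLT4 and MMRN1. Of the 136 cells, 18 had none of the 4 genes, 58 had 1, 36 had 2, 10 had 3 and 14 had all 4. At least 2 genes were in 60 cells, but MMRN1 and FLT4 were also found at a few UMIs in cells rich in blood vessel genes, so this count took in both kinds. Seen after the values, the 14 cells with all 4 genes, here called lymphatic, were set against the 112 cells with at most 2, here called blood. Lymphatic cells were 10.3% of the endothelial cells (5.74 to 16.7), and 3.48% (4 of 115) when at least 6 rule genes were required, under which CCL21 was at 968 CPM over the endothelial cells in place of 3198 CPM. By definition PROX1 was in all 14, with 1 to 8 UMIs. It was in 0 of the 112, which were allowed up to 2 of the 4 genes. Depth was alike, with medians of 16592 UMIs in lymphatic and 15223 in blood cells. The lymphatic cells had 4 to 7 rule genes with a median of 5 and the blood cells 4 to 11 with a median of 7, so lymphatic cells lay nearer to the threshold. Outside it were 4 further E60 cells with all 4 lymphatic genes, which had 1 to 3 rule genes, PECAM1 in each and PLVAP in none. Those 4 cells had 186 to 446 CCL21 UMIs each and held 67.0% of the CCL21 counts of the other 6713 cells.

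CCL21, which draws dendritic and T cells into lymph vessels and was not used to split the cells, had 3 to 1295 UMIs per lymphatic cell with a median of 339. In blood cells it had 0 to 2 UMIs. The summed level was 23940 CPM (23358 to 24532) against 8.88 CPM (5.08 to 14.4), a 2696-fold difference (1659 to 4719), and the cells did not overlap. RELN, a secreted matrix protein of lymphatic endothelium, had 1 to 27 UMIs per lymphatic cell and was at 584 CPM (496 to 683) against 1.11 CPM. Both belong to a list of 12 further lymphatic genes, of which 10 were in the table and 7 were tested in all endothelial against all other E60 cells. There CCL21, RELN and NTS were the 3 higher genes, while ITGA9, SEMA3D, CD9 and ADAMTS1 were the 4 lower ones. The median log2 ratio of the list was -1.20. The genes used for the split were, as a description, LYVE1 at 2191 against 9.44 CPM, MMRN1 at 2292 against 127 CPM and FLT4, the receptor of the lymphatic growth factor VEGFC, at 469 against 23.9 CPM.

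Among the 1343 genes with at least 100 CPM in either group, 129 (9.61%) were at least 2-fold higher and 186 (13.8%) at least 2-fold lower in lymphatic than in blood cells. Named here by their ratios after the values were seen, PKHD1L1, LTB, SCNN1B, FGL1, NTS and TNFAIP8L3 were among the higher genes. PKHD1L1 was in 13 of 14 lymphatic cells at 275 CPM (216 to 346) and at 0 counts in blood cells, at least 165-fold higher when the blood cells were set to a floor of 3 counts. TNFAIP8L3 was in all 14 cells at 993 CPM (878 to 1120) against 6.66 CPM. NTS, the neurotensin precursor, reached 383 CPM, but 82 of its 103 UMIs were in 1 cell. LTB, a cytokine of the tumour necrosis factor family, was in 5 of 14 cells with up to 40 UMIs in 1 of them. PTN and IGF1, growth factors, were higher in lymphatic cells as well, at 2530 CPM (2343 to 2727) against 52.7 CPM and 1049 CPM (930 to 1179) against 23.3 CPM, and both were in all 14 cells. The venous factor NR2F2 was at 528 CPM (445 to 623) against 189 CPM (169 to 210), and NRP2, the coreceptor of FLT4, at 379 CPM (309 to 461) against 90.5 CPM.

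Several blood vessel genes were at or near 0 in lymphatic cells. PLVAP had 0 to 5 UMIs per lymphatic cell with a median of 0 and was at 29.8 CPM (12.8 to 58.6), against 0 to 151 UMIs with a median of 31.5 and 2437 CPM (2365 to 2510) in blood cells. ESAM had 2 UMIs in the 14 cells and at least 1 UMI in each of the 112, at 7.44 against 1034 CPM. FLT1 had 0 counts in lymphatic cells and 135 CPM in blood cells, at least 12.1-fold lower against a floor of 3 counts over the lymphatic cells. The same was true of CXCR4 (286 CPM in blood cells), MECOM (277 CPM) and KITLG (157 CPM), at least 25.6-fold, 24.8-fold and 14.1-fold lower. CD36 was at 3.72 CPM against 1105 CPM, and VWF at 55.8 CPM (31.2 to 92.0) against 950 CPM (905 to 996). PECAM1, KDR, SOX18 and LMO2 were shared by both kinds: PECAM1 was at 424 against 492 CPM, KDR at 499 against 659 CPM, SOX18 at 1384 against 1382 CPM and LMO2 at 1150 against 1043 CPM. PECAM1 and KDR are rule genes, so their presence in lymphatic cells follows in part from the choice of cells. PLVAP, ESAM, FLT1 and VWF are rule genes as well, so their levels in blood cells also follow in part from that choice. SOX18 and LMO2 were not used by the rule.

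The 10 cells with 3 of the 4 genes lacked PROX1 and fell to both sides. Of these, 3 cells had 525, 339 and 21 CCL21 UMIs, 13 to 27 LYVE1 UMIs and no VWF, CD36 or FLT1. The other 7 had 0 or 1 CCL21 UMI, 28 to 96 PLVAP UMIs and 11 to 30 CD36 UMIs. Counts of 3 genes thus joined cells of unlike makeup, which is why they were kept out of the comparison. Of the LYVE1 counts in the other 6713 E60 cells, 80.2% were in the myeloid-marked cells, at 908 CPM, so LYVE1 alone was no mark of lymphatic endothelium in this library.

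**Figure D4:**
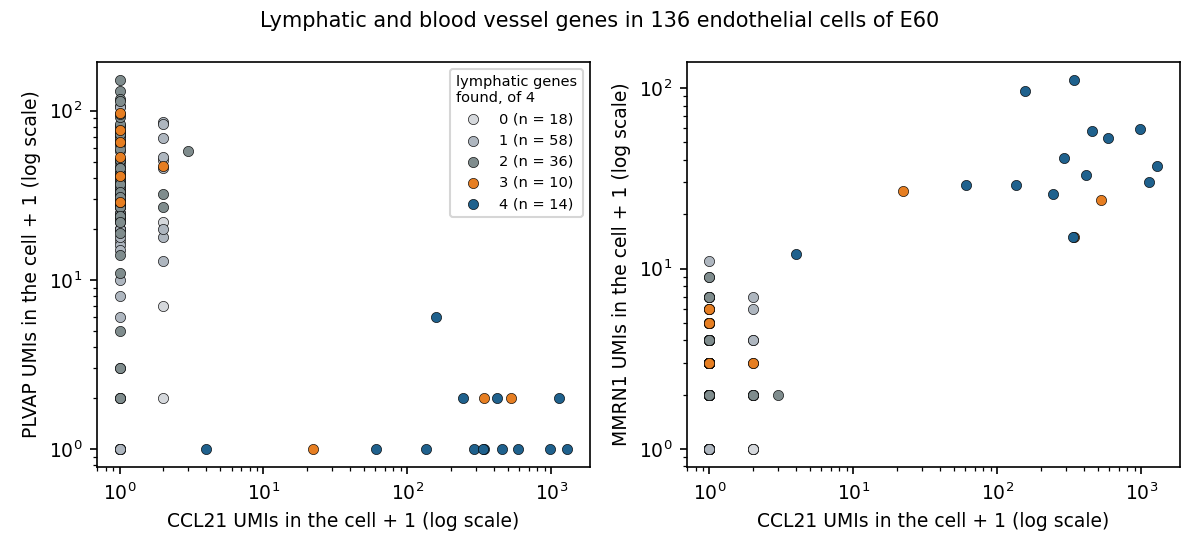
Each point is 1 of the 136 endothelial cells, with CCL21 UMIs + 1 on the horizontal log axis and the UMIs + 1 of the gene named on each vertical log axis, coloured by how many of the 4 lymphatic genes were found. The 14 cells with all 4 genes and 3 of the cells with 3 genes lie to the right, with little or no PLVAP.

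Arterial and venous genes were then counted in the cells. At least 2 of 8 arterial genes (DLL4, HEY1, HEY2, EFNB2, GJA4, GJA5, SOX17 and JAG1) were in 67 cells (49.3%), and at least 2 of 6 venous genes (NR2F2, EPHB4, APLNR, NRP2, ACKR1 and SELP) were in 91 (66.9%). Both marks were in 39 cells, so the marks overlapped. Of the other E60 cells 18.1% carried the arterial mark and 4.68% the venous mark. EFNB2, the arterial ephrin, was at 283 CPM in endothelial cells but at 147 CPM in the others, and NR2F2 at 234 against 28.9 CPM. Of 17 arterial genes 7 reached the minimum, 5 of them higher and none lower, and 3 of 9 measured venous genes did, all higher.

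A narrower split, chosen after the values were seen, used HEY1, a Notch target of arteries, and SELP or ACKR1, which venous endothelium shows to leukocytes. Among the 112 blood cells, 25 had HEY1 alone, 30 had SELP or ACKR1 alone, 3 had both kinds and 54 had neither. No lymphatic cell had any of the 3 genes. Median depths were 15284, 16966 and 14860 UMIs in the HEY1 cells, the SELP or ACKR1 cells and those with neither. HEY1 had 1 to 8 UMIs with a median of 2 in the 25 cells, so a cell with little HEY1 RNA can lie among the 54, and the groups are ranges and not types.

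Other arterial genes were higher in the HEY1 cells. CXCR4 had 0 to 48 UMIs with a median of 9 in HEY1 cells and 0 to 12 with a median of 0 in SELP or ACKR1 cells, at 773 CPM (687 to 867) against 64.5 CPM (44.9 to 89.7), a fold of 8.42 to 17.5. EFNB2 was at 603 CPM (528 to 687) against 158 CPM (127 to 196), JAG2 at 235 against 73.7 CPM and JAG1 at 153 against 44.2 CPM. GJA4, an arterial gap junction gene, was in 5 of the 25 HEY1 cells and in none of the SELP or ACKR1 cells or those with neither kind of gene. It had only 7 UMIs in 7 of the 136 endothelial cells, so its absence from a group rests on few counts. Cells with neither gene lay between for CXCR4 (178 CPM) and EFNB2 (212 CPM), but not for JAG2 (57.9 CPM) or JAG1 (37.8 CPM). IGFBP2, CTHRC1 and CDH13, named for their ratios, were at 389 against 27.6 CPM, 482 against 49.7 CPM and 566 against 71.8 CPM. SOX18 and DEPP1 were higher in HEY1 cells by 2.16-fold (1.94 to 2.41) and 2.28-fold (2.11 to 2.48).

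The venous gene NR2F2 and PLVAP were higher in the SELP or ACKR1 cells. NR2F2 had 0 to 6 UMIs with a median of 0 in HEY1 cells and 0 to 20 with a median of 4 in SELP or ACKR1 cells, at 47.6 CPM (28.2 to 75.3) against 287 CPM (244 to 336), 6.03-fold lower in HEY1 cells (3.69 to 10.4). PLVAP had 0 to 50 UMIs with a median of 12 in the former and 5 to 151 with a median of 50 in the latter, at 1045 CPM (945 to 1153) against 3131 CPM (2984 to 3284). The PLVAP ranges overlapped. Of the 27 endothelial cells with 0 or 1 PLVAP UMI, 13 were lymphatic, 3 were cells with 3 lymphatic genes, and 10 of the other 11 had HEY1. Low PLVAP was thus found in cells with lymphatic genes or with HEY1.

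PNOC was also higher in the SELP or ACKR1 cells. It had 0 to 26 UMIs with a median of 0 in HEY1 cells and 0 to 167 with a median of 18.5 in SELP or ACKR1 cells, at 108 CPM (77.9 to 147) against 1790 CPM (1679 to 1906), 16.5-fold lower in HEY1 cells (12.1 to 23.1). Of the 40 cells with at least 10 PNOC UMIs, 17 had SELP or ACKR1 alone, 1 had HEY1 alone, 15 had neither, 1 had both, 2 were lymphatic and 4 had 3 lymphatic genes. Cells with neither were at 519 CPM, so high PNOC was not limited to cells with SELP or ACKR1. FABP3.1 was at 37.0 CPM against 484 CPM, GAP43, a growth cone protein, at 23.8 against 223 CPM, and the transporter gene ABCG2 at 79.4 against 333 CPM. CD36 and VWF were at 1304 against 1030 CPM and 794 against 1116 CPM, both under 2-fold.

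**Figure D5:**
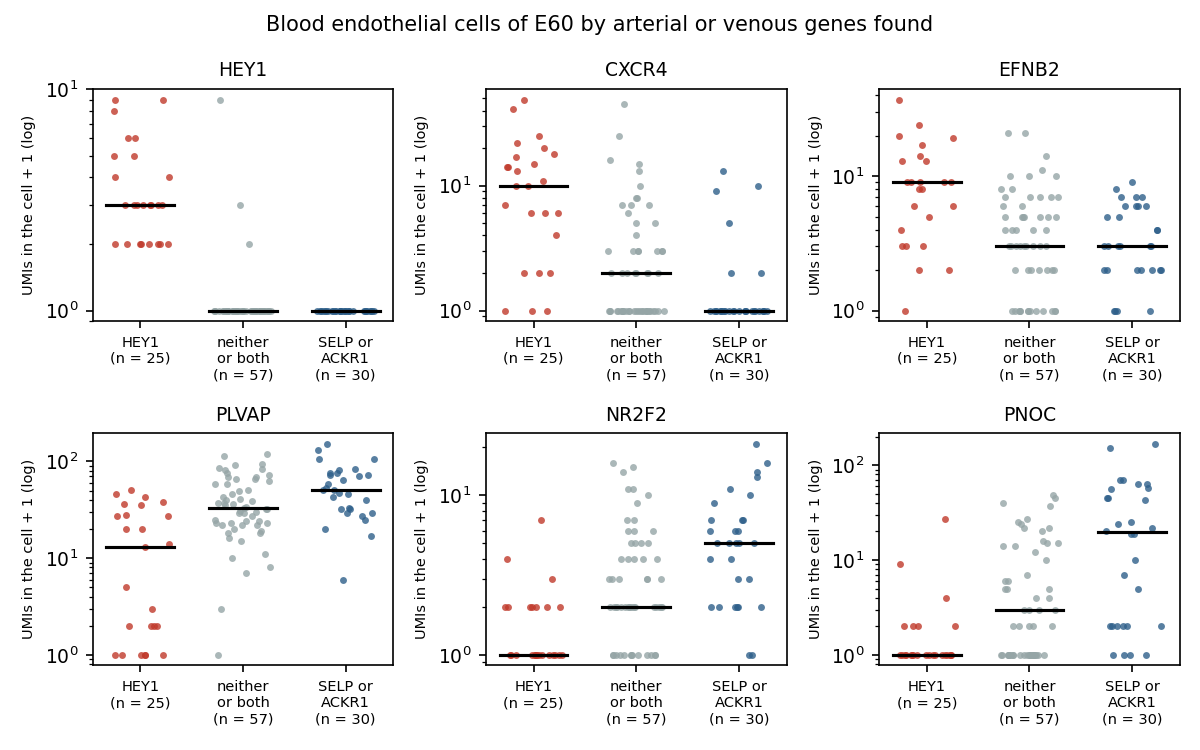
Panels show the UMIs + 1 per cell, on log axes, of the gene in each title for blood endothelial cells with HEY1 alone (n = 25), with neither or both kinds of gene (n = 57) and with SELP or ACKR1 alone (n = 30). CXCR4 and EFNB2 are higher in the HEY1 cells, and PLVAP, NR2F2 and PNOC in the SELP or ACKR1 cells, with overlap between the groups. Bars are medians.

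Genes of sprouting tips and of capillaries were few. Of 12 measured tip cell genes, 6 reached the minimum and all were higher, among them ESM1 at 20.5 CPM (15.1 to 27.2) against 0.112 CPM, ADM, the ligand of CALCRL and RAMP2, at 39.7 against 7.51 CPM, and COL4A1 and COL4A2, which the basement membrane list also holds. ADM was uneven, with 30.8% of its UMIs in 1 cell. CD36 was the 1 capillary gene of 7 in the table that reached the minimum.

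RNA of other cell types was present in endothelial cells. Among the 9 fibroblast genes of the table, the share of the 136 cells with a UMI ranged from 0% for TWIST2 to 97.1% for POSTN. DCN was in 80.9% and COL1A1 in 42.6% of the cells. The 9 fibroblast genes of the table summed to 2746 CPM in endothelial cells against 18944 CPM in the others, and all 8 that reached the minimum were lower. Per endothelial cell this sum ranged from 75.5 to 58080 CPM with a median of 639 CPM, and 10 cells with at least 20 COL1A1 UMIs held 54.4% of it. Of these 10 cells, 5 were called doublets. Without the 10 cells the sum was 1355 CPM, and 709 genes were higher and 564 lower. Without them POSTN was at 561 CPM in place of 849 CPM and DCN at 292 CPM in place of 566 CPM. The fibroblast sum in endothelial cells thus rests in large part on these 10 cells, but not only on them. The part of doublets and of free RNA was not tested. Mural markers summed to 106 CPM against 397 CPM, with RGS5 and CSPG4 at 0, and 7 endothelial cells had 4 or more of them.

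Of the 13 myeloid genes in the table, 7 had 0 counts in endothelial cells, among them PTPRC, CSF1R, C1QA, CD14 and TYROBP, and no endothelial cell had 4 myeloid genes. LAPTM5, a lysosomal protein known from blood cells, was the 1 myeloid gene that was higher, at 257 CPM (236 to 278) against 20.1 CPM, with 0 to 18 UMIs per cell and a median of 4, in 118 of 136 cells. In myeloid-marked cells it was at 818 CPM. Epithelial markers summed to 1.31 CPM, with KRT14 at 0, and the 2 platelet genes were at 0.

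Cell cycle genes were lower in endothelial cells than in the rest of the skin. Of 11 tested genes from 18 in the table, 8 were lower and none higher, with a median log2 ratio of -1.21. TOP2A, needed to separate chromosomes, was at 116 CPM (102 to 131) against 284 CPM (280 to 288), and CENPF at 128 against 334 CPM. At least 5 TOP2A UMIs were in 13 endothelial cells (9.56%, 5.19 to 15.8) and in 897 others (13.4%, 12.6 to 14.2), so the shares overlapped before depth was equalised. At 6000 UMIs per cell they were 2.21% and 10.0%. Of the lymphatic cells 4 of 14 had at least 5 TOP2A UMIs (28.6%, 8.39 to 58.1), and of the blood cells 8 of 112 (7.14%, 3.13 to 13.6), intervals that overlap.

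The same rule gave 58 of 6931 cells at E90 (0.837%) and 375 of 6896 at E120 (5.44%). These cells had medians of 3611 and 6493 UMIs against 16131 at E60, and a rule on genes found depends on depth, so the shares are given with no order. RNA of other cells also differed, with the keratin gene KRT14 at 0, 227 and 25.8 CPM in the endothelial cells of E60, E90 and E120. Of the genes of the rule, PECAM1 was at 477, 362 and 693 CPM and KDR at 637, 398 and 425 CPM in the 3 libraries.

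CCL21, LYVE1 and PROX1 were found in the endothelial cells of E60 and at low levels or 0 counts at the later stages. FLT4 was found at each stage, and MMRN1 at E60 and E90 but at a low level at E120. CCL21 was at 3198 CPM (3125 to 3272) at E60, had 0 counts in 58 cells at E90, which allows up to 11.9 CPM taken as 3 counts, and was at 22.9 CPM (17.9 to 28.9) at E120. LYVE1 was at 296 CPM at E60, had 0 counts at E90 and was at 4.83 CPM (2.71 to 7.97) at E120. PROX1 was at 19.2 CPM (13.9 to 25.7) at E60 and had 0 counts at both later stages. FLT4 was at 85.4, 19.9 and 53.8 CPM, and at E120 it was in 117 of the 375 cells (31.2%). MMRN1 was at 407, 87.6 and 9.99 CPM, and it was in 16 of the 58 cells at E90 (27.6%) and in 20 of the 375 cells at E120 (5.33%). No endothelial cell had all 4 lymphatic genes at E90 or E120, where a count of 0, taken as 3 cells, allows shares of up to 5.17% and 0.8%. At E90 the cells outside the rule carried CCL21 at 5.03 CPM, LYVE1 at 2.96 CPM and PROX1 at 0.466 CPM, the E60 lymphatic cells lay near the threshold, and E90 cells had fewer UMIs, so lymphatic cells missed by the rule at E90 cannot be told apart from their lack. At E120 CCL21 was in 26 of the 375 cells, of which 1 had at least 20 CCL21 UMIs. Only follicles were taken at E120, and its cells also had fewer UMIs than those of E60. The lack of cells with all 4 genes there thus cannot be told apart from the dissection or from depth.

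Among other genes, PNOC was at 755 CPM (720 to 792) at E60, had 1 UMI in 58 cells at E90 and had 0 counts in 375 cells at E120. Its E120 level was at least 781-fold lower than at E60 against a floor of 3 counts over the E120 cells. CD36 was at 934, 446 and 80.6 CPM, VWF at 829, 199 and 216 CPM, TFPI at 488, 95.5 and 91.2 CPM and NR2F2 at 234, 103 and 79.3 CPM. These were highest at E60. The NR2F2 sum at E60 includes the lymphatic cells, in which NR2F2 was higher than in blood cells. ESM1, SPARCL1 and EMCN were lowest there, with ESM1 at 20.5 CPM (15.1 to 27.2), 99.5 CPM (64.4 to 147) and 825 CPM (794 to 858), SPARCL1 at 347, 1131 and 1623 CPM, and EMCN at 30.5, 183 and 150 CPM. At E90 the other cells of the library carried SPARCL1 at 243 CPM, against 7.09 CPM at E60. TM4SF1 was at 1364, 1035 and 1314 CPM.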

How the data were processed

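Dorsal skin cells of E60, E90 and E120 goat fetuses were measured by droplet 3′ single-cell RNA sequencing. The deposited table holds natural log values: the counts of a cell were brought to a sum of 10000, 1 was added and the natural log taken, as the values themselves show. Cell Ranger 3.0.2 is named in the submitters' processing notes. The genome build, annotation and cell filters are not given in the sources used here. UMI counts were recovered by inverting the transform: 100% of nonzero values were whole multiples of 1 UMI within a tolerance of 0.01. The planned analysis had assumed counts. The table held 16739 genes, of which 4030 carried only an identifier. Cells took their stage from the start of their names, as the labels describe.

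Counts were summed per group (Python 3.11.15, numpy 2.4.6, scipy 1.17.1) and scaled to 1000000, with a pseudocount of 1 CPM in ratios. A fold against 0 counts used a floor of 3 counts over the group. Doublets were called with a script of Scrublet's algorithm and kept. Only the comparison of summed counts and the intervals of its ratios were checked on simulated data. Named were the rule and lymphatic genes, the 12 largest and 6 smallest ratios among symbols with at least 100 CPM, up to 4 largest, 2 smallest and 2 most abundant genes of each list, and ligands beside receptors. Genes named outside this rule were chosen after their values were seen, among them those that divide lymphatic, blood, HEY1 and SELP or ACKR1 cells. The members and lists were chosen with earlier results of these data known. Alternatives covered the threshold of rule genes, the minimum level, the pseudocount, the scaling, doublets and left-out cells. Promoter and protein sequences were not analysed here.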

Additional observations from a re-analysis of the deposited data

How the results depend on the processing

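The share of E60 cells counted as endothelial was 1.68% to 2.12% when 3, 5 or 6 rule genes were required, each cell was thinned to 6000 UMIs or called doublets were left out. The numbers of genes higher and lower were 235 and 173 with a minimum of 100 CPM and 1608 and 1464 with none, where more or fewer genes were counted, and stayed within 1.5 times the reported 697 and 546 under the other alternatives run. The lymphatic mark (at least 2 genes) was in 86.8% of the cells with 1 gene, 17.6% with 3 genes, 10.3% with all 4 and 22.1% when each cell was thinned to 6000 UMIs. The arterial mark was in 92.6%, 16.2% and 27.9% with 1 gene, 3 genes and thinning, and the venous mark in 86.8%, 22.8% and 41.2%, so these shares depend on the number of genes and on depth. The share with all 4 lymphatic genes was 7.09% and 3.48% when 5 and 6 rule genes were required. None of the 18 named ratios changed direction under the 14 settings, but their size moved beyond the counting interval in 39 of 252 cases, 17 of them with 10 CPM added in place of 1. On the log2 scale PNOC then went from 8.47 to 6.10 and FABP3.1 from 7.47 to 4.68. Leaving out the cells with all 4 lymphatic genes, those with at least 20 COL1A1 UMIs or the cell with most globin was chosen after seeing the data, as was the mark of all 4 genes and its share by rule threshold. No paired analysis was possible because each stage was 1 library of pooled fetuses. With 1 library the spread between fetuses is unknown, and levels near 1.31 CPM in endothelial cells rest on 3 counts.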

Other observations

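Globin RNA was concentrated in 1 endothelial cell. HBAI, an alpha globin gene, was at 1620 CPM in endothelial cells against 549 CPM in the other E60 cells, but 3597 of its 3718 UMIs were in that cell, as were 1346 of 1371 UMIs of HBAII and all 31 UMIs of ALAS2, the erythroid enzyme of haem synthesis. The cell had 9 rule genes and 28849 UMIs, of which 17.1% were globin. Without it HBAI was at 53.4 CPM and no other endothelial cell had more than 10 HBAI UMIs. HBAI and HBAII are near-identical copies, so the split of reads between them is uncertain. In the other E60 cells, 11 cells with over 1000 HBAI UMIs held 73.2% of the counts.

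A gene known in the table only as ENSCHIG00000021348, chosen after its values were seen, had 0 to 348 UMIs per endothelial cell with a median of 47. It was in 132 of 136 cells at 4010 CPM (3929 to 4093) against 6.07 CPM in the other E60 cells, a 661-fold difference (596 to 734). No name was paired with it in the tables used here.

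SLC2A3, IGFBP7 and CD200, outside the lists, were also higher in endothelial cells, and were likewise chosen after their values were seen. SLC2A3, a glucose transporter, was at 772 CPM (736 to 809) against 14.6 CPM, in 133 cells. IGFBP7, a secreted protein of vessel basement membranes, was at 2064 CPM (2005 to 2123) against 63.4 CPM, also in 133 cells. CD200, which restrains myeloid cells, was at 243 CPM (223 to 264) against 2.96 CPM, in 114 cells.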
